A study of Mus musculus with 40 samples.

Results

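The genes described here are the 3 members of the Gadd45 family (Gadd45a, Gadd45b and Gadd45g), Cdkn1a, which encodes the cyclin-dependent kinase inhibitor p21, the tumour suppressor gene Trp53, which encodes p53, and the p53 target genes Mdm2, Ccng1 and Btg2. They were chosen by name, 8 of the 22844 genes in the deposited tables, and all 8 were among the 13543 genes tested. Levels were followed across 8 groups of 5 mice each, with 1 library per mouse and 40 libraries in all.

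mRNA was sequenced from the whole extensor digitorum longus (EDL), a mouse hindlimb muscle made mainly of fast fibers. Control mice (CON) were Tsc1fl/fl littermates without Cre recombinase, and TSCmKO mice had lost Tsc1 in their muscle fibers, and with it a brake on mTORC1, the kinase complex that drives protein synthesis and growth. Mice were 3 or 9 months old (written 3m or 9m), carried the strain label Tsc1tm1Djk/J, and received intraperitoneal vehicle or rapamycin (+RM), an inhibitor of mTORC1, for 3 days. The labels give 4 mg per kg of rapamycin, whereas the study text gives a higher dose, so that the dose is uncertain. The groups are 3mCON, 3mCON+RM, 3mTSCmKO, 3mTSCmKO+RM, 9mCON, 9mCON+RM, 9mTSCmKO and 9mTSCmKO+RM. Whole muscle holds more than fibers, and the labels name no promoter for the Cre, so that fewer cells of a type and less RNA per cell cannot be told apart in any value below.

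Gadd45 proteins are small stress-induced proteins that bind the kinase MAP3K4, the replication clamp PCNA, p21 and the CDK1 and cyclin B1 pair, and thereby link stress to p38 and JNK signalling, DNA repair and cell cycle arrest. Gadd45a is also known in muscle as a gene that rises after denervation and under the transcription factor ATF4 and is able to drive fiber atrophy. The protein p53 is controlled mainly after translation, chiefly through degradation by MDM2, and its activity is usually read from its target genes, among which are Cdkn1a, Mdm2, Ccng1, Btg2 and Gadd45a. Several of these targets also answer to other factors without p53, Cdkn1a and the Gadd45 genes in particular.

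Total counts ran from 8883870 to 35224669 per library. Tsc1, the targeted gene, was lower in TSCmKO at both ages, with 24.4 to 35.8 CPM (counts scaled to the size of the library with TMM factors) in the 10 vehicle-treated TSCmKO libraries and 51.3 to 134 CPM in the 10 vehicle-treated CON libraries. The 8 fiber markers fixed for the labelled tissue, among them Acta1, Ckm and Myh4, summed to 116324 to 177117 TPM (an abundance scaled by transcript length) per library. Libraries of 9 months had longer inserts (223 to 308 nt) than those of 3 months (175 to 239 nt), so that age and library preparation cannot be told apart. The vehicle-treated control library 9mCON replicate 2 stood apart for immediate-early genes, the transcripts that rise within minutes of stimulation: 17 of them summed to 1093 TPM there and to 143 to 465 TPM in the other 39 libraries. Calls of the 8 genes that it decided are given with and without it.

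In GRCm38 (GENCODE M21), all 8 are protein-coding genes. Gadd45a lies at chr6:67035096-67037457 on the minus strand, Gadd45b at chr10:80930073-80932204 on the plus strand and Gadd45g at chr13:51846678-51848468 on the plus strand. Cdkn1a lies at chr17:29090976-29100727 (plus) and Trp53 at chr11:69580359-69591873 (plus). Mdm2 lies at chr10:117688875-117710758 (minus), Ccng1 at chr11:40748552-40755311 (minus) and Btg2 at chr1:134075170-134079120 (minus). Of the 31-mers in their transcripts, 0% were shared with other genes of the table for the 3 Gadd45 genes and Btg2, and 0.0855% for Ccng1, 1.08% for Trp53, 1.81% for Mdm2 and 3.21% for Cdkn1a. Reads of the 3 Gadd45 genes could thus be told apart from each other.

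The sequences before the transcription start sites of Gadd45a, Gadd45g, Cdkn1a and Btg2 are shown because the results below turn mainly on these 4 genes. They come from the RefSeq promoter table (GRCm38.p6), in which all 8 genes were found with 9 start sites, and run 5′ to 3′ on the gene's strand through the 250 bases before the start, without the bases that lie inside the GENCODE gene. Capitals mark matches to 7 motifs searched on both strands: the CCAAT box (CCAAT), the GC box (GGGCGG), the cAMP response element (TGACGTCA), the AP-1 site (TGACTCA), the core of the composite element bound by ATF4 (TGATGNAA), the p53 half-site and the serum response element.
Gadd45a, chr6:67037458-67037657, minus strand: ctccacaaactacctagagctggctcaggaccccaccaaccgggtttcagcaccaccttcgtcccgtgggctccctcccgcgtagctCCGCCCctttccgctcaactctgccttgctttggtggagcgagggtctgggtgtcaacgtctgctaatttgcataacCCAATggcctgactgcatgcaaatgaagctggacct
Gadd45g, chr13:51846425-51846674, plus strand: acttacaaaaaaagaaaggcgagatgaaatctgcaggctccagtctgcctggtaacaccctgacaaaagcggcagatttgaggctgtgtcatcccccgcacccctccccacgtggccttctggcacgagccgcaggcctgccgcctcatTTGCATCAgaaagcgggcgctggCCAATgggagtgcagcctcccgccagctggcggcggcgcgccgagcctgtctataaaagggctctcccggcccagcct
Cdkn1a, chr17:29090729-29090975, plus strand: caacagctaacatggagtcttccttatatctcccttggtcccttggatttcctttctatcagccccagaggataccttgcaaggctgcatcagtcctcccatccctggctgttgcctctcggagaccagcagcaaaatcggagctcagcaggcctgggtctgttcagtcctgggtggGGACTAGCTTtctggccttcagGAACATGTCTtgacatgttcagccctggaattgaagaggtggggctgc
Btg2, chr1:134079156-134079405, minus strand: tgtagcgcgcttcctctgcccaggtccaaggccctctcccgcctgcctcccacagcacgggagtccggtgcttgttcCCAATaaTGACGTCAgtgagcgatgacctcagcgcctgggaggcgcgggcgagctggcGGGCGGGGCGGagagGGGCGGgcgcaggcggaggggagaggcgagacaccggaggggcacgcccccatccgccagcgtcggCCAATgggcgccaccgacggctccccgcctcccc

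A p53 half-site was present in 5 of the 9 windows of 250 bases, against 7.13% of all 32851 promoter windows of the table. Cdkn1a held 2 of them in the window shown, and Gadd45a, Trp53, Mdm2 and Ccng1 held 1 each, that of Gadd45a within the part inside the GENCODE gene that is not printed. The ATF4 composite core was found in the Gadd45g window (3.45% of all windows), on the opposite strand, and the cAMP response element in the Btg2 window (1.55%). CCAAT boxes were present in 7 of 9 windows (33.8% of all) and GC boxes in 5 of 9 (32.7%), with overlapping GC boxes in Btg2. The AP-1 site (4.46%) and the serum response element (1.47%) were found in 0 of 9. A match of letters is a description of the window and not a binding site.

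**Figure D1:**
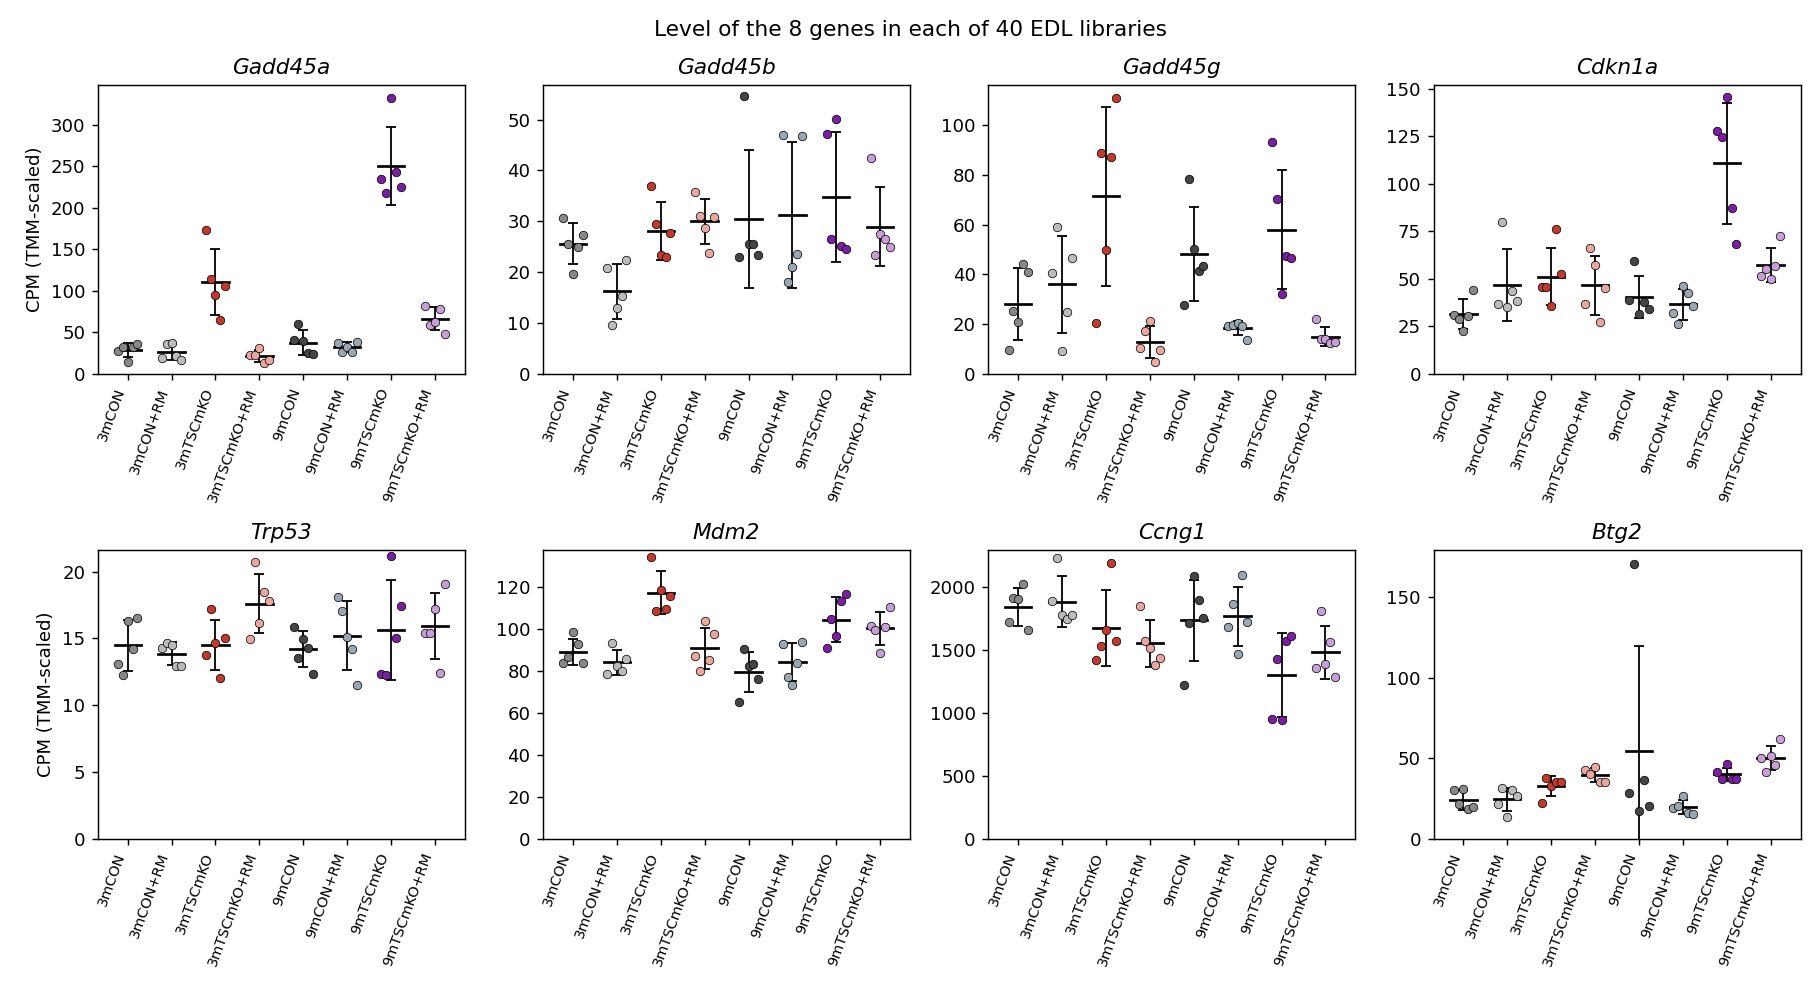
Level of each gene (CPM, linear axis from 0, scaled by TMM factors) in the 40 libraries, by group. Points are libraries, horizontal bars the mean of 5 and error bars the SD. The 5 9mTSCmKO libraries sit at 217 to 332 CPM for Gadd45a, above the other 35, and 9mCON replicate 2 sits at 170.5 CPM for Btg2, where the lower error bar runs below the axis.

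Gadd45a was the gene of the family called between genotypes under vehicle at both ages. Its CPM in 9mCON were 41.2, 59.8, 39.5, 24.7 and 23.3, and in 9mTSCmKO 234, 217, 332, 244 and 225. At 3 months they were 27.2, 32.5, 14.5, 32.7 and 35.4 in 3mCON and 173, 114, 95.3, 64.4 and 106 in 3mTSCmKO. The groups did not overlap at either age. On the log2 scale Gadd45a rose by 2.74 ± 0.28 (SE, adjusted p = 4.8e-10), or 6.66-fold, at 9 months and by 1.96 ± 0.27 (adjusted p = 7.7e-07), or 3.89-fold, at 3 months. Adjusted p-values here and below come from edgeR's quasi-likelihood F-test over the 13543 genes, and a change was called at an adjusted p under 0.05. At that threshold 37.9% of all genes were called between the genotypes at 9 months and 19.8% at 3 months.

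Rapamycin lowered Gadd45a in TSCmKO muscle. In 9mTSCmKO+RM the values were 82.2, 59.4, 63.0, 77.9 and 48.2 CPM, and in 3mTSCmKO+RM 23.0, 22.5, 31.3, 13.5 and 16.1 CPM, and neither group overlapped with its vehicle group. The log2 change was -1.92 ± 0.27 (adjusted p = 8.4e-07) at 9 months and -2.38 ± 0.27 (adjusted p = 3.2e-08) at 3 months, in comparisons in which 32.6% and 23.6% of all genes were called. In CON muscle the change missed the threshold, at -0.21 (95% interval -0.75 to 0.32) at 9 months, where 11.8% of genes were called, and -0.12 (-0.66 to 0.42) at 3 months, where 0.679% were. The difference between the genotypes in the response was itself past the threshold at both ages, at -1.71 ± 0.37 (adjusted p = 0.0054) at 9 months and -2.26 ± 0.38 (adjusted p = 0.00028) at 3 months. These interactions were called for 4.87% and 3.45% of all genes.

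A genotype difference in Gadd45a remained under rapamycin at 9 months and missed the threshold at 3 months. At 9 months treated TSCmKO muscle was above treated CON muscle by 1.03 ± 0.26 (log2, adjusted p = 0.0041), with no overlap between the 2 groups (20.6% of all genes called). It was also above vehicle-treated CON by 0.81 ± 0.26 (adjusted p = 0.016, 31.9% called), lost without 9mCON replicate 4 or 5 (adjusted p up to 0.0528), and by 1.04 (adjusted p = 0.0032) without 9mCON replicate 2. At 3 months treated TSCmKO lay at -0.30 (95% interval -0.84 to 0.24) of treated CON and at -0.42 (-0.95 to 0.12) of vehicle-treated CON, both short of the threshold (10% and 16.7% called). The difference between the ages in these remaining effects was not tested.

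With age, Gadd45a was higher in 9mTSCmKO than in 3mTSCmKO by 1.18 ± 0.26 (adjusted p = 0.00059), without overlap, among 37.4% of genes called. In CON the difference was 0.41 (95% interval -0.13 to 0.94), in a comparison that called 1.02% of genes. The interaction of genotype and age, called for 4.94% of genes, was 0.78 ± 0.37 with an adjusted p of 0.24. By edgeR or by any alternative, 0 of the 8 genes passed it. Gadd45a and Cdkn1a had unadjusted intervals above 0 (0.03 to 1.52 and 0.05 to 1.43). Of all 13543 genes, 2647 had an unadjusted edgeR p under 0.05 for this interaction. In the order of group means, 9mTSCmKO stood clear of 3mTSCmKO, whereas the ranges of all other neighbours in that order overlapped.

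**Figure D2:**
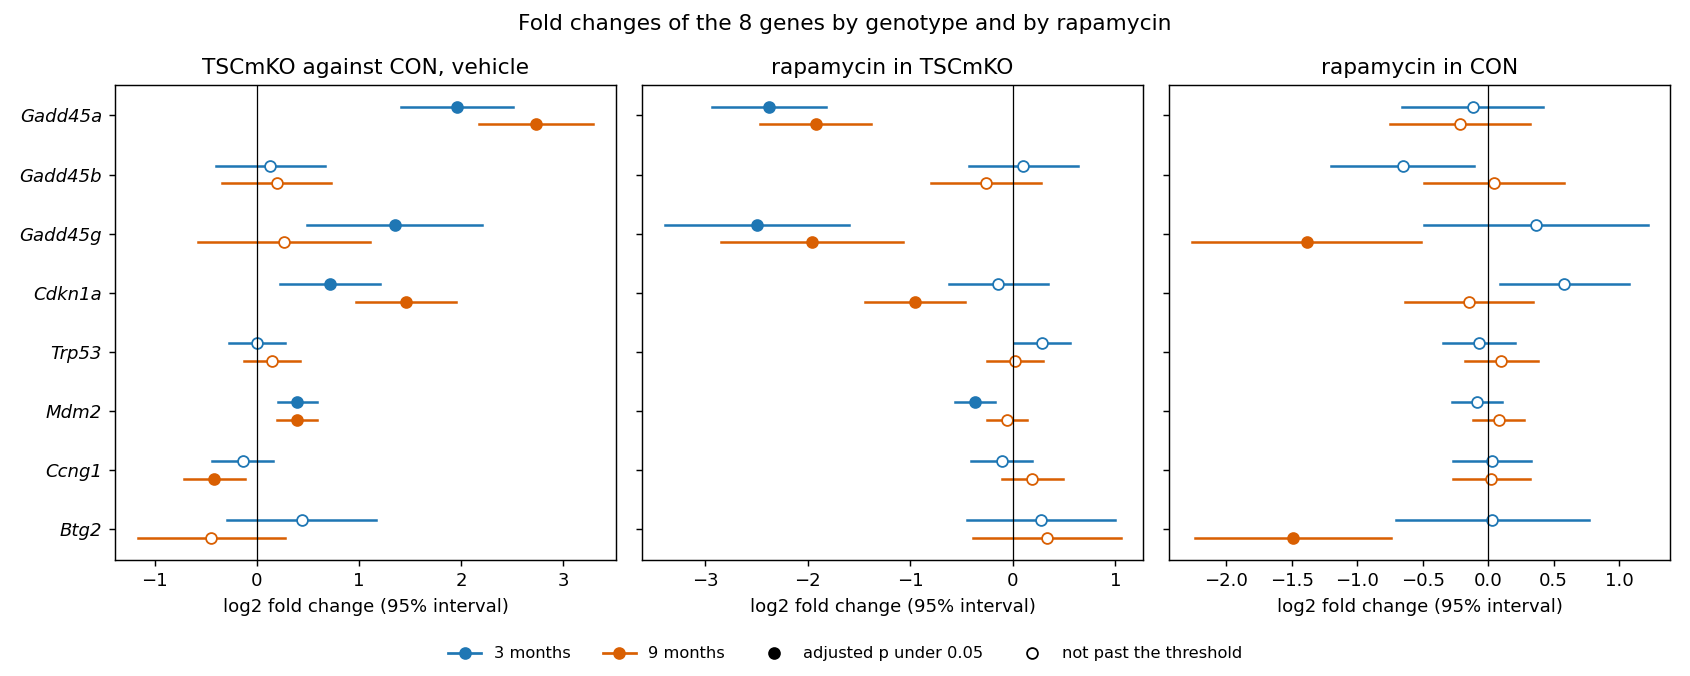
Log2 fold change of each gene (x axis) in TSCmKO against CON under vehicle, in TSCmKO under rapamycin and in CON under rapamycin, at 3 months (blue) and 9 months (orange). Points are edgeR estimates and lines 95% intervals, filled points are past an adjusted p of 0.05. Gadd45a is filled in the TSCmKO panels at both ages and open in both CON comparisons.

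Gadd45g, the family member known for its induction by cytokines and in development, also fell with rapamycin in TSCmKO muscle, and under vehicle was called between genotypes at 3 months only. Its CPM at 3 months were 9.46, 25.4, 20.7, 44.1 and 40.9 in 3mCON and 20.6, 88.9, 49.7, 87.2 and 111 in 3mTSCmKO, ranges that overlap. It rose there by 1.35 ± 0.42 (adjusted p = 0.021), and lost this call in 3 of 10 fits that left out 1 library, 3mCON replicate 1 or 3 or 3mTSCmKO replicate 5 (adjusted p up to 0.0716). At 9 months the genotype difference was 0.27 (95% interval -0.58 to 1.11), or 0.51 (adjusted p = 0.374) without 9mCON replicate 2. Under rapamycin the values were 21.9, 13.9, 13.9, 12.3 and 12.8 CPM in 9mTSCmKO+RM, below the 93.1, 70.2, 32.2, 47.4 and 46.5 CPM of 9mTSCmKO, a change of -1.96 ± 0.44 (adjusted p = 0.00078). At 3 months they were 10.6, 17.3, 21.2, 4.75 and 9.67 CPM in 3mTSCmKO+RM, a change of -2.50 ± 0.44 (adjusted p = 6.2e-05), with 1 vehicle library at 20.6 CPM inside the treated range.

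In CON muscle the change of Gadd45g with rapamycin passed the threshold at 9 months and not at 3 months. At 9 months it fell by 1.38 ± 0.43 on the log2 scale (adjusted p = 0.031), from 27.8 to 78.5 CPM under vehicle to 13.7 to 20.5 CPM under rapamycin. The groups did not overlap, but the call was lost in 5 of 10 fits without 1 library (9mCON replicate 2, with adjusted p = 0.0934, and 9mCON+RM replicates 1, 2, 4 and 5). At 3 months the change was 0.36 (95% interval -0.49 to 1.22). The response differed between the genotypes at 3 months, with an interaction of -2.86 ± 0.61 (adjusted p = 0.0046), and at 9 months the interaction was -0.57 (-1.79 to 0.65). Whether the 2 ages of CON muscle differ was not tested.

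Treated TSCmKO muscle held less Gadd45g than vehicle-treated CON at 9 months, at -1.69 ± 0.44 (adjusted p = 0.0029), without overlap. Against treated CON at 9 months the difference was -0.31 (adjusted p = 0.69), with overlapping ranges of 12.3 to 21.9 and 13.7 to 20.5 CPM. At 3 months the comparison with vehicle-treated CON gave -1.15 (adjusted p = 0.064). The comparison with treated CON gave -1.51 ± 0.43 there (adjusted p = 0.020). That call was lost in 4 of 10 fits, those without 3mCON+RM replicate 2 or 5 or 3mTSCmKO+RM replicate 4 or 5.

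Gadd45b, the third family member, which is best known as a target of NF-kappaB and TGF-beta signalling, stayed between 9.63 and 54.6 CPM in all 40 libraries. The genotype difference was 0.19 (95% interval -0.34 to 0.73) at 9 months, or 0.51 ± 0.26 (adjusted p = 0.111) without 9mCON replicate 2, and 0.13 (-0.41 to 0.67) at 3 months, and the difference with rapamycin in TSCmKO -0.26 (-0.80 to 0.27) and 0.10 (-0.43 to 0.63). None of these passed the threshold. Under rapamycin at 3 months it was higher in TSCmKO (23.7 to 35.8 CPM) than in CON (9.63 to 22.4 CPM), by 0.88 ± 0.27 (adjusted p = 0.029). This call was lost in 6 of 10 fits that left out 1 library (3mCON+RM replicates 2, 3 and 4, 3mTSCmKO+RM replicates 1, 2 and 5), with adjusted p up to 0.0961.

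Per transcript length, the shares of the 3 genes in the Gadd45 pool differed between groups. In 3mCON the means were 54.8 ± 15.4 TPM (SD, n = 5) for Gadd45a, 48.0 ± 7.6 for Gadd45b and 53 ± 26.2 for Gadd45g, with overlapping ranges. Gadd45a made up 32.6% ± 7.3 of the summed TPM in 9mCON and 72.9% ± 7.5 in 9mTSCmKO, and the sum itself was 199 ± 53 TPM against 629 ± 58 TPM. Under rapamycin the sum in 9mTSCmKO+RM was 198 ± 27 TPM, while the share of Gadd45a was 60.3% ± 4.7 and that of Gadd45g 14% ± 1.8 (42.5% ± 6.6 in 9mCON). The sums of 9mTSCmKO+RM and 9mCON were within 1 SD of each other, while Gadd45a made up 54.9% to 66.4% of the pool in the treated libraries against 26.3% to 44.0% in 9mCON. These shares were not tested, being computed from the members themselves.

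**Figure D3:**
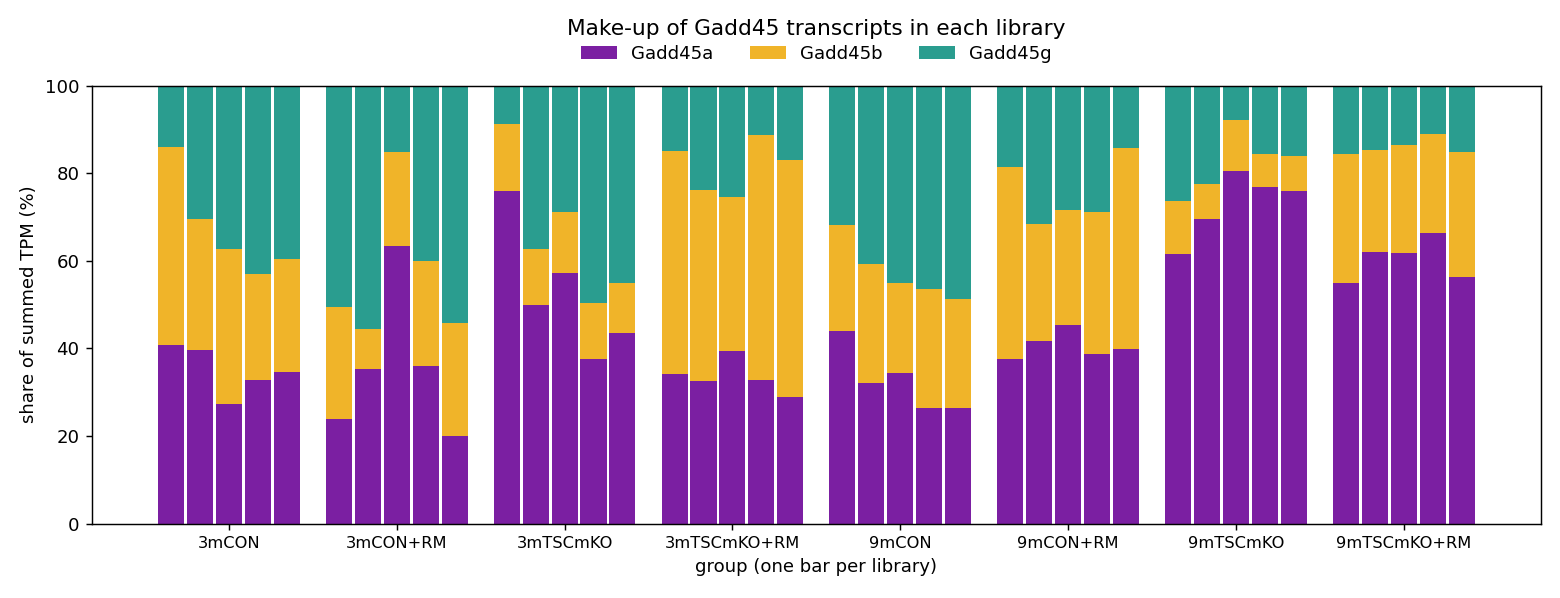
Share of each Gadd45 gene in the summed TPM of the family (y axis, %), 1 bar per library in the order of the replicate numbers, by group. Gadd45a takes 26.3% to 44.0% in 9mCON, whereas its share is 61.5% to 80.5% in 9mTSCmKO and 54.9% to 66.4% after rapamycin.

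The binding partners of the Gadd45 proteins were taken from a list. Of 7 genes in it, Cdk1 and Ccnb1 lay below the filter on low counts and Map2k7 was split over 2 entries, which left 4 tested. At 9 months Pcna rose by 0.44 ± 0.15 (adjusted p = 0.019) and Gadd45gip1, which encodes a protein that binds Gadd45 proteins, by 0.33 ± 0.13 (adjusted p = 0.037), and Mapk14, which encodes p38 alpha, fell by 0.73 ± 0.12 (adjusted p = 7.2e-06). At 3 months Pcna rose by 0.44 ± 0.15 (adjusted p = 0.033). Map3k4 gave -0.01 (adjusted p = 0.96) at 9 months and 0.16 (adjusted p = 0.42) at 3 months. In these comparisons 37.9% and 19.8% of all genes were called. With rapamycin in TSCmKO, Map3k4 and Mapk14 rose at 9 months, where 15.8% of all genes rose. Pcna fell at 3 months, where 13% fell.

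Cdkn1a was higher in TSCmKO muscle at both ages. At 9 months its CPM were 128, 124, 146, 87.3 and 68.3 in 9mTSCmKO and 38.8, 59.5, 31.3, 37.9 and 34.2 in 9mCON, where the highest value was that of replicate 2. The groups did not overlap and the rise was 1.46 ± 0.24 (adjusted p = 9.15e-06), or 1.64 (adjusted p = 3.7e-06) without that library. At 3 months the values were 45.8, 45.5, 36.0, 76.4 and 52.5 CPM in 3mTSCmKO against 30.7, 28.7, 22.8, 30.2 and 44.3 CPM in 3mCON. That rise of 0.72 ± 0.24 (adjusted p = 0.031) lost its call in 6 of 10 fits without 1 library (3mCON replicates 1, 2, 3 and 4, 3mTSCmKO replicates 4 and 5), with adjusted p up to 0.146. From 3 to 9 months Cdkn1a rose by 1.11 ± 0.24 (adjusted p = 0.00048) in TSCmKO, with an adjusted p of 0.065 once insert size was a term of the fit, and its difference with age in CON was 0.37 (95% interval -0.12 to 0.86).

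Rapamycin lowered Cdkn1a in TSCmKO at 9 months, to 51.6, 55.1, 49.8, 57.0 and 72.4 CPM, by 0.95 ± 0.24 on the log2 scale (-0.95, adjusted p = 0.0022). The highest treated library lay above the lowest vehicle library of 68.3 CPM. Treated TSCmKO libraries were all above treated CON libraries (26.2 to 46.0 CPM), but the difference of 0.65 ± 0.24 missed the threshold (adjusted p = 0.052), which it passed in 4 of 8 alternative settings. In TSCmKO at 3 months the change with rapamycin was -0.14 (95% interval -0.62 to 0.34) and in CON it was -0.14 (-0.63 to 0.35) at 9 months and 0.58 (0.09 to 1.07, adjusted p = 0.40) at 3 months. Treated TSCmKO against vehicle-treated CON gave 0.50 ± 0.24 (adjusted p = 0.108) at 9 months, and 0.68 ± 0.25 (adjusted p = 0.0339) without 9mCON replicate 2. The response did not pass the test for a difference between genotypes at 9 months (-0.81 ± 0.34, adjusted p = 0.16).

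Of the 5 other CDK inhibitor genes tested beside Cdkn1a, 1 was called at 9 months and 2 at 3 months, where 37.9% and 19.8% of all genes were called. Cdkn2c, which encodes p18, fell at 9 months by 1.2 ± 0.20 (adjusted p = 9.1e-06) and at 3 months by 0.68 ± 0.20 (adjusted p = 0.010), and Cdkn1c, which encodes p57, rose at 3 months by 0.63 ± 0.16 (adjusted p = 0.0040). Under rapamycin in TSCmKO, Cdkn2b fell at 9 months, and Cdkn1b and Cdkn1c at 3 months, where 16.8% and 13% of all genes fell. Cdkn2a, which encodes the senescence-linked p16 and p19 ARF, was below the filter and not tested, and was read with 3 to 10 counts in each of the 5 9mTSCmKO libraries and at most 2 counts in each of the other 35. Among the 8 tested cyclins and CDKs that p21 binds, 2 rose and 1 fell at 9 months and 3 rose and 1 fell at 3 months, against 37.9% and 19.8% of all genes called in either direction. Ccne1 rose by 3.19 ± 0.34 (adjusted p = 1.4e-09) at 9 months and by 1.69 ± 0.33 (adjusted p = 0.00018) at 3 months, Ccnd3 rose at both ages, and Ccne2 fell by 0.48 ± 0.13 (adjusted p = 0.0033) and 1.23 ± 0.13 (adjusted p = 3.9e-09). Cdk2 rose by 0.52 ± 0.18 (adjusted p = 0.0324) at 3 months. Ccnd1 was called lower at 9 months as well once 9mCON replicate 2 was left out (-0.79, adjusted p = 0.0471).

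Trp53 itself had the smallest ratio of highest to lowest group mean of the 8 genes. Its group means ran from 13.9 to 17.6 CPM and its 40 libraries from 11.5 to 21.2 CPM, with overlapping ranges between all neighbours in the order of means. Genotype gave 0.14 (95% interval -0.13 to 0.42) at 9 months and 0.00 (-0.27 to 0.28) at 3 months. Rapamycin in TSCmKO gave 0.02 (-0.25 to 0.30) at 9 months and 0.28 (0.01 to 0.55, adjusted p = 0.13) at 3 months. Trp53 passed the threshold in 0 of the 15 comparisons of the common fit. The nearest was TSCmKO against CON under rapamycin at 3 months, at 0.35 ± 0.14 (adjusted p = 0.10), where the 2 groups did not overlap (14.9 to 20.7 against 12.9 to 14.7 CPM). It was called there in 1 of 8 alternative settings, the fit to only the groups compared.

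Mdm2, the ubiquitin ligase that targets p53 for degradation and is itself a p53 target, rose at both ages. Its CPM were 91.1, 105, 96.6, 113 and 117 in 9mTSCmKO against 65.0, 90.4, 82.4, 83.5 and 76.1 in 9mCON, and 134, 108, 118, 109.5 and 116 in 3mTSCmKO against 83.7, 86.5, 98.4, 92.7 and 83.9 in 3mCON. The groups were separate at both ages, narrowly so at 9 months. The rise was 0.39 ± 0.10 (adjusted p = 0.0012) at 9 months and 0.40 ± 0.10 (adjusted p = 0.0021) at 3 months, and it stayed past the threshold in all 10 fits without 1 library at each age. Rapamycin lowered Mdm2 in TSCmKO at 3 months, by 0.37 ± 0.10 on the log2 scale (-0.37, adjusted p = 0.00345), to 79.9 to 104 CPM, without overlap. At 9 months the change was -0.06 (95% interval -0.25 to 0.13). Treated TSCmKO was then above vehicle-treated CON by 0.33 ± 0.10 (adjusted p = 0.00635), with overlapping ranges and with an adjusted p of 0.0568 when only the groups compared were fitted. Its difference from treated CON, 0.25 (95% interval 0.06 to 0.45), missed the threshold (adjusted p = 0.0546), which it passed in 3 of 8 alternative settings.

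The other genes that control p53 were called in both directions. Of 12 tested, 2 rose and 2 fell between genotypes at 9 months, and 0 rose and 1 fell at 3 months, in comparisons that called 37.9% and 19.8% of all genes. Without 9mCON replicate 2 the counts at 9 months were 1 and 2, and it was Chek1 that lost its call (adjusted p = 0.0763). Mdm4, the partner of MDM2 in holding p53 down, fell by 0.50 ± 0.12 (adjusted p = 0.0010) at 9 months and 0.41 ± 0.12 (adjusted p = 0.013) at 3 months, opposite to Mdm2. Ppm1d, a phosphatase that dampens p53 signalling and is itself a p53 target, rose by 0.42 ± 0.13 (adjusted p = 0.0086) at 9 months and gave 0.04 (adjusted p = 0.87) at 3 months. The checkpoint kinase gene Chek1 rose by 0.77 ± 0.30 (adjusted p = 0.039) and Atr fell by 0.44 ± 0.15 (adjusted p = 0.021) at 9 months. Under rapamycin, Trp63, the p53 relative, rose in TSCmKO by 1.4 ± 0.23 (adjusted p = 1.2e-05) at 9 months and 1.30 ± 0.24 (adjusted p = 6.2e-05) at 3 months, and in 9mCON by 1.15 ± 0.24 (adjusted p = 0.0011). In TSCmKO, Trp53bp1 and Atr also rose at 9 months, and Usp7 and Cop1 fell at 3 months (32.6% and 23.6% of all genes called). In 9mCON Chek2 fell, a call lost without 9mCON replicate 2 (adjusted p = 0.111), with 11.8% of all genes called.

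Ccng1, which encodes cyclin G1, a p53 target that recruits phosphatase 2A to MDM2, was the most abundant of the 8, with 988 ± 65 TPM in 3mCON against 75.5 ± 7.4 TPM for the next, Mdm2. Under vehicle it was the one of the 8 genes called lower between genotypes, at 9 months. Its CPM were 948, 1427, 946, 1572 and 1612 in 9mTSCmKO and 1219, 1715, 2092, 1897 and 1753 in 9mCON, with overlapping ranges. It fell by 0.42 ± 0.15 (adjusted p = 0.023), a call lost in 4 of 10 fits without 1 library (9mCON replicates 3 and 4, 9mTSCmKO replicates 1 and 3, adjusted p up to 0.101) and in 2 of 8 alternative settings, limma and a fit to only the groups compared (adjusted p up to 0.189). The fall of 0.36 ± 0.15 from 3 to 9 months in TSCmKO (adjusted p = 0.048) held in 2 of 8 alternative settings and in 5 of 10 fits without 1 library (lost without 3mTSCmKO replicate 3, 4 or 5 or 9mTSCmKO replicate 1 or 3). At 3 months the genotype difference was -0.14 (95% interval -0.44 to 0.16), and rapamycin gave 0.19 (-0.11 to 0.48) in TSCmKO at 9 months. Its relative Ccng2, a target of FoxO factors, gave 0.26 (adjusted p = 0.19) and 0.30 (adjusted p = 0.17) between genotypes at 9 and 3 months, and 0.39 (adjusted p = 0.0467) at 9 months without 9mCON replicate 2.

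Btg2, an antiproliferative p53 target that is also an immediate-early gene, turned on 1 library. Its CPM in 9mCON were 28.5, 170.5, 17.4, 36.2 and 20, and 170.5 was that of replicate 2. In 9mCON+RM they were 19.2, 19.9, 26.3, 16.1 and 15.3, in 9mTSCmKO 41.6, 37.1, 46.3, 37.2 and 37.3, and in 9mTSCmKO+RM 50.3, 41.4, 51.6, 45.5 and 61.7. The genotype difference at 9 months was -0.45 ± 0.36 (adjusted p = 0.335) with that library and 0.64 ± 0.20 (adjusted p = 0.011) without it, and all 5 9mTSCmKO values lay above the 4 remaining control values. The fall with rapamycin in 9mCON, of 1.49 ± 0.37 (adjusted p = 0.0063), became -0.40 (adjusted p = 0.21) without it. Treated TSCmKO against vehicle-treated CON at 9 months turned from -0.12 (adjusted p = 0.84) to 0.97 ± 0.20 (adjusted p = 0.00033).

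In comparisons without 9mCON, Btg2 was called in 1. Under rapamycin at 9 months it was higher than in CON by 1.37 ± 0.37 (adjusted p = 0.0060), without overlap, in 10 of 10 fits that left out 1 library. At 3 months the values were 35.0 to 44.7 CPM in 3mTSCmKO+RM and 13.4 to 31.2 CPM in 3mCON+RM, also without overlap, and the difference of 0.68 (95% interval -0.05 to 1.41) missed the threshold (adjusted p = 0.28). Between vehicle groups at 3 months it was 0.44 (-0.29 to 1.17). The spread behind these tests is estimated from all 40 libraries, 9mCON replicate 2 included. The 17 immediate-early genes summed to 225 to 335 TPM in 9mTSCmKO+RM and to 143 to 286 TPM in 9mCON+RM. Of the 16 tested, 1 was higher and 0 lower in that comparison (median 0.47), where 11.3% of all genes were higher. Their part in the Btg2 difference was not tested.

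**Figure D4:**
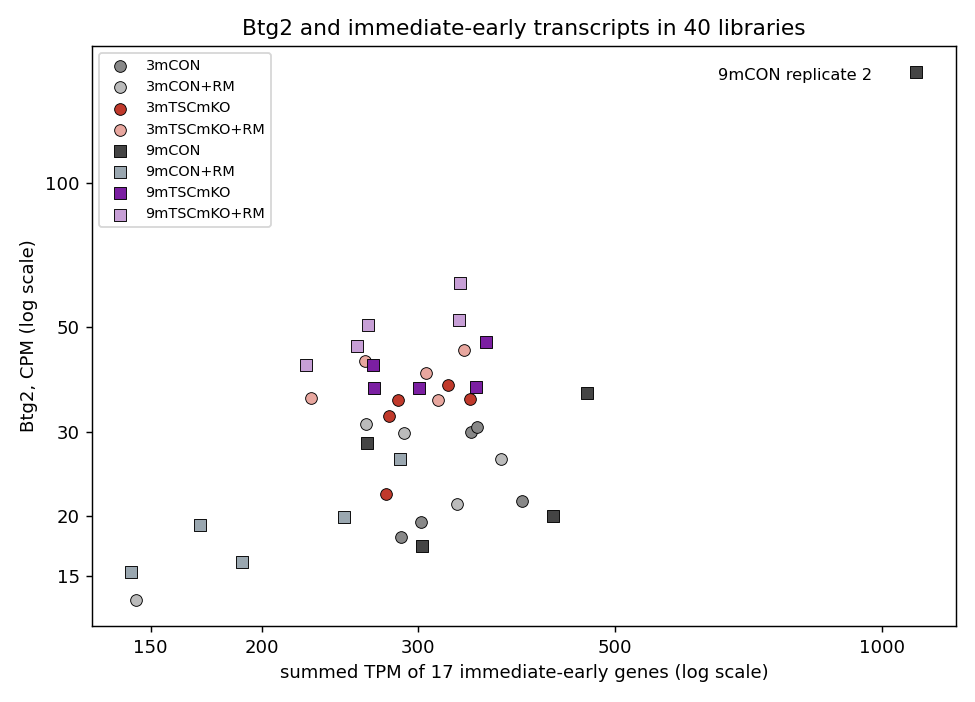
Btg2 (CPM, y axis) against the summed TPM of 17 immediate-early genes (x axis), both on log scales, in the 40 libraries, with squares for 9 months and circles for 3 months. 9mCON replicate 2 lies at 1093 TPM and 170.5 CPM, apart from the other 39 libraries.

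Other markers moved with these results. In control muscle of 9 months, the 16 tested immediate-early genes had a median change of -1.14 with rapamycin in 9mCON, and 8 of them fell, among them Fosb (-4.88 ± 0.85, adjusted p = 0.00024), Fos (-2.92 ± 0.77, adjusted p = 0.011), Nr4a2 (-2.74 ± 0.50, adjusted p = 0.00038) and Egr1 (-2.32 ± 0.71, adjusted p = 0.028). Without 9mCON replicate 2 the median was -0.44 and 4 fell, and Fos (0.09, adjusted p = 0.929) and Egr1 (-0.71, adjusted p = 0.505) were not among them. Macrophage markers summed to 20.1 to 68.2 TPM in 9mCON and 4.64 to 19.1 TPM in 9mCON+RM (5 of 6 fell), fibroblast markers to 636 to 1251 TPM and 104 to 477 TPM (5 of 5 fell), and tendon markers to 55.3 to 359 TPM and 21.8 to 51.5 TPM (4 of 5 fell). In that comparison 6.82% of all genes fell. The part of these markers in the falls of Gadd45g and Btg2 in 9mCON was not tested.

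Between the genotypes at 9 months, where 18.9% of all genes fell, markers of several cell types were lower in TSCmKO: 4 of 5 for fibroblasts, 3 of 5 for tendon, 3 of 4 for pericytes and smooth muscle (Rgs5, Pdgfrb and Acta2), 2 of 4 for endothelium, 2 of 4 for Schwann cells and 1 of 3 for adipocytes. Of 6 macrophage markers Cd68 rose and Cd163 fell, and 4 of 8 fiber markers fell, Acta1, Ckm, Myh4 and Actn3. The counts lower without 9mCON replicate 2 were 5 for fibroblasts, 3 for endothelium, 3 for fibers, 1 for Schwann cells and 0 for adipocytes. Of 16 immediate-early genes, 5 fell and 1 rose (median -0.94), and 3 fell and 2 rose without that library (median -0.14). Fos went from -1.40 (adjusted p = 0.12) to 1.61 (adjusted p = 0.0040) without it. The part of these markers and immediate-early genes in the rises of Gadd45a, Cdkn1a and Mdm2 and in the fall of Ccng1 was not tested. Between the genotypes at 3 months, Scx and Acta2 were the cell type markers called lower, and Cd79a the one called higher. Of all genes, 8.32% fell and 11.4% rose there. The fiber, fibroblast, endothelial, macrophage, Schwann and adipocyte markers had 0 called. The part of cell types in the rises of Gadd45a, Gadd45g, Cdkn1a and Mdm2 at 3 months was not tested. From 3 to 9 months in TSCmKO, where 18.3% of all genes fell, tendon markers had a median change of -2.56 (4 of 5 fell and 1, Scx, rose) and adipocyte markers of -2.61 (3 of 3 fell), and 4 of 5 fibroblast, 3 of 4 endothelial, 2 of 4 pericyte and smooth muscle and 3 of 8 fiber markers fell. Their part in the rises of Gadd45a and Cdkn1a and the fall of Ccng1 with age was not tested. In treated TSCmKO against vehicle-treated CON at 9 months, 5 of 5 fibroblast markers, 4 of 5 tendon markers (median -2.67) and 3 of 6 macrophage markers were lower, where 16.2% of all genes were. Of 16 immediate-early genes, 5 were lower and 2 higher there, and 4 and 3 without 9mCON replicate 2. Their part in the differences of Gadd45a, Gadd45g and Mdm2 in that comparison was not tested.

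With rapamycin in TSCmKO, 4 of 8 fiber markers rose at 9 months (Ckm, Myh4, Myh1 and Actn3), and at 3 months 3 rose (Ckm, Myh4 and Myh1) and 1 fell (Tnnc2), where 15.8% and 10.6% of all genes rose. The fiber markers summed to 116324 to 136321 TPM in 9mTSCmKO and 144835 to 163949 TPM in 9mTSCmKO+RM, without overlap, and to 129398 to 170289 TPM and 153853 to 169461 TPM at 3 months, with overlap. Of the markers of other cells, Pax7 and Rgs5 rose and C1qa, Thbs4, Kdr, S100b and Top2a fell at 9 months, and Cd68, Mrc1, Col1a1 and Scx rose and Cd79a fell at 3 months. Macrophage markers summed to 26.1 to 49.3 TPM in 9mTSCmKO and 16.4 to 29.4 TPM in 9mTSCmKO+RM, and to 21.6 to 44.4 TPM and 35.4 to 87.5 TPM at 3 months. The part of these markers in the falls of Gadd45a, Gadd45g, Cdkn1a and Mdm2 with rapamycin was not tested.

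Other p53 targets for arrest, repair and metabolism were called higher more often than lower in TSCmKO, although most did not pass the test. At 9 months 7 of 17 tested rose and 1 fell, with a median of 0.26 (0.60 without 9mCON replicate 2) against -0.02 over all genes, and 19.1% of all genes rose. At 3 months 8 rose and 0 fell, with a median of 0.35, where 11.4% of all genes rose. The sestrin genes Sesn1 and Sesn2, whose products restrain mTORC1, rose at both ages, Sesn2 by 1.67 ± 0.19 (adjusted p = 4.5e-09) at 9 months and 1.48 ± 0.19 (adjusted p = 1.5e-07) at 3 months, and Sesn1 by 1.10 ± 0.19 (adjusted p = 1.2e-05) and 1.24 ± 0.19 (adjusted p = 3.4e-06). Ddit4, another brake on mTORC1, rose by 1.73 ± 0.51 (adjusted p = 0.0080) and 3.23 ± 0.54 (adjusted p = 3.2e-05). Trp53inp1, an autophagy and stress gene, rose by 1.08 ± 0.16 (adjusted p = 1.1e-06) and 0.82 ± 0.16 (adjusted p = 0.00018), and the splicing regulator gene Zmat3 by 0.82 ± 0.20 (adjusted p = 0.0011) and 0.77 ± 0.20 (adjusted p = 0.0036). The stress cytokine gene Gdf15 was read with 43 to 198 counts per library in 9mTSCmKO and 0 to 3 in 9mCON, and with 2 to 10 in 3mTSCmKO and 0 to 1 in 3mCON. Sesn2, Ddit4 and Gdf15 are known to answer to ATF4 as well as to p53, and Sesn1 to FoxO factors. Polk, a DNA polymerase gene, fell at 9 months by 0.58 ± 0.13 (adjusted p = 0.00068).

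Under rapamycin in TSCmKO, 7 of these 17 genes fell and 2 rose at 9 months (16.8% of all genes fell), and 6 fell and 1 rose at 3 months (13% fell). Ddit4 fell by 2.38 ± 0.53 (adjusted p = 0.00078) at 9 months and fell by 3.25 ± 0.54 (adjusted p = 2.8e-05) at 3 months. Sesn1 fell by 0.93 ± 0.19 (adjusted p = 0.00017) and 1.39 ± 0.19 (adjusted p = 5.0e-07). Sesn2 fell by 0.84 ± 0.18 (adjusted p = 0.00044) and 1.04 ± 0.18 (adjusted p = 4.0e-05). Gdf15 was read with 3 to 8 counts per library in 9mTSCmKO+RM. Zmat3 went the other way without passing the threshold, at 0.44 (adjusted p = 0.079) and 0.43 (adjusted p = 0.10), and Rrm2b, a ribonucleotide reductase gene for DNA repair, rose by 0.79 ± 0.13 (adjusted p = 6.9e-06) and 0.58 ± 0.12 (adjusted p = 0.00058). The vehicle-treated TSCmKO libraries enter both the genotype and the rapamycin comparisons, so that the opposite signs of the 2 are not independent. With both genotypes on rapamycin at 9 months, 5 of the 17 were higher in TSCmKO and 0 lower (11.3% of all genes were higher). These were Sesn1, Sesn2, Zmat3, Trp53inp1 and Gdf15. At 3 months 1, Zmat3, was higher and 0 lower (5.67% higher).

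**Figure D5:**
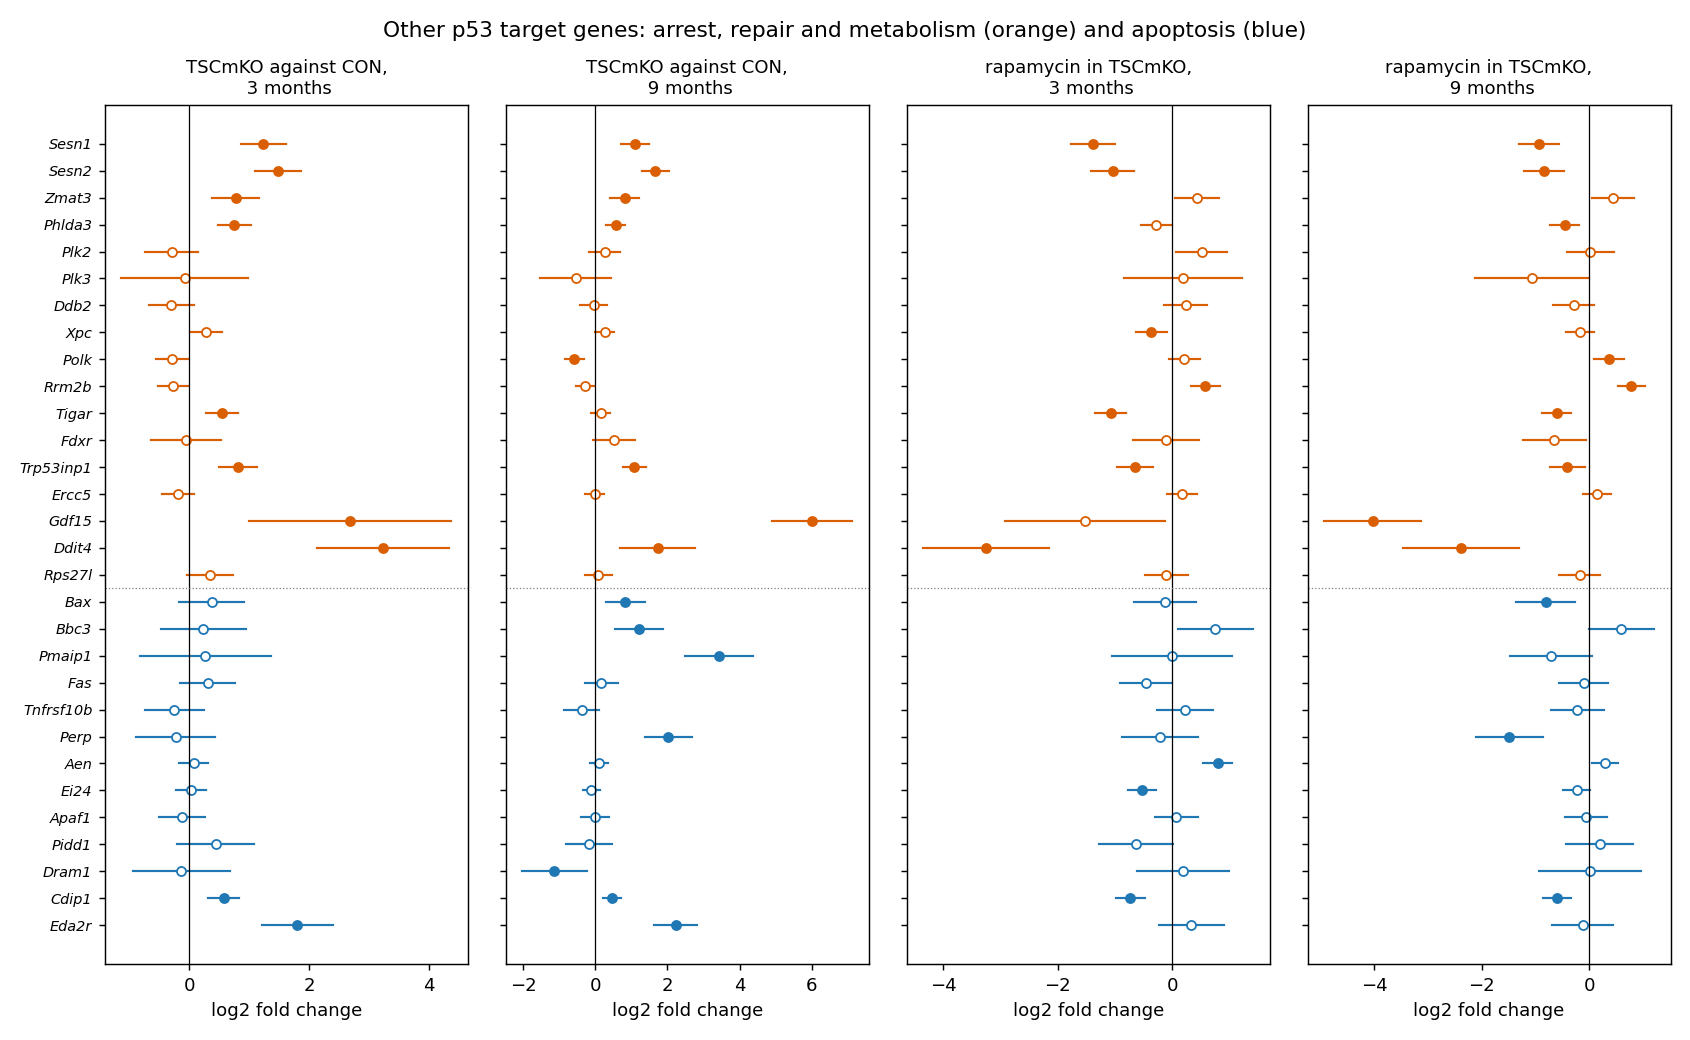
Log2 fold change (x axis) of 30 other p53 target genes in TSCmKO against CON under vehicle and in TSCmKO under rapamycin, at 3 and 9 months. Points are edgeR estimates, lines 95% intervals and filled points past an adjusted p of 0.05, with arrest, repair and metabolism genes in orange and apoptosis genes in blue. Gdf15 had 0 to 3 counts per library in CON, and its fitted value depends on the prior count. Sesn1 and Sesn2 are filled in all 4 panels, and Pmaip1, Bbc3, Perp and Bax are filled to the right at 9 months.

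Of the 13 apoptosis genes among the p53 targets, 6 rose and 1, Dram1, fell at 9 months, where 19.1% of all genes rose and 18.9% fell. Pmaip1, which encodes NOXA, rose by 3.43 ± 0.47 (adjusted p = 2.1e-07), the ectodysplasin receptor gene Eda2r by 2.23 ± 0.30 (adjusted p = 1.7e-07), Perp by 2.03 ± 0.32 (adjusted p = 3.2e-06) and Bbc3, which encodes PUMA, by 1.22 ± 0.33 (adjusted p = 0.0030). Bax, the pore-forming effector, rose by 0.84 ± 0.27 (adjusted p = 0.013) and gave 0.38 (adjusted p = 0.36) at 3 months. At 3 months 2 of 13 rose (11.4% of all genes), Eda2r by 1.80 ± 0.29 (adjusted p = 1.5e-05) and Cdip1 by 0.58 ± 0.13 (adjusted p = 0.00074). Rapamycin in 9mTSCmKO lowered Perp by 1.48 ± 0.31 on the log2 scale (-1.48, adjusted p = 0.00028), Bax by 0.81 ± 0.27 (-0.81, adjusted p = 0.018) and Cdip1, and 0 rose (16.8% of all genes fell and 15.8% rose). Pmaip1, Eda2r and Bbc3 were not called there. With both genotypes on rapamycin at 9 months, Bbc3, Pmaip1, Perp and Eda2r were higher in TSCmKO and Ei24 lower (11.3% and 9.33% of all genes). At 3 months Bbc3 and Eda2r were higher and Ei24 lower (5.67% and 4.36%). Rapamycin in TSCmKO at 3 months raised Aen and lowered Ei24 and Cdip1 (10.6% and 13%). In 9mCON it raised Aen and Eda2r (5.03%). Without 9mCON replicate 2 the counts at 9 months between genotypes were 8 up and 1 down for the first list and 6 up and 0 down for this one, with Plk3 gained in the first (0.96, adjusted p = 0.0394) and Dram1 lost in the second (adjusted p = 0.0613).

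Genes described with Gadd45a in atrophying muscle form another list. Of 8 tested, 6 rose in TSCmKO at 9 months and 4 at 3 months, with medians of 0.88 and 1.05, where 19.1% and 11.4% of all genes rose. Without 9mCON replicate 2, 5 rose at 9 months, Trim63 and Fbxo32 losing their calls (adjusted p = 0.0514 and 0.0534) and Atf4 gaining one (0.41, adjusted p = 0.0127). Trib3, an ATF4 target, rose by 2.24 ± 0.35 (adjusted p = 3.3e-06) at 9 months and 1.05 ± 0.36 (adjusted p = 0.032) at 3 months, and the metallothionein gene Mt2 by 3.38 ± 0.59 (adjusted p = 2.6e-05) and 1.61 ± 0.58 (adjusted p = 0.047). The ubiquitin ligase genes Trim63 and Fbxo32 rose by 1.55 ± 0.26 (adjusted p = 2.2e-05) and 1.05 ± 0.23 (adjusted p = 0.00089) at 3 months, and by 0.77 ± 0.26 (adjusted p = 0.016) and 0.69 ± 0.23 (adjusted p = 0.017) at 9 months. Rapamycin in TSCmKO lowered 4 of the 8 at 9 months and 3 at 3 months, Trib3 by 2.26 ± 0.35 (-2.26, adjusted p = 5.3e-06) and by 1.21 ± 0.35 (-1.21, adjusted p = 0.010). Of all genes, 16.8% and 13% fell. It raised Hdac4 and Myog at both ages (15.8% and 10.6% of all genes rose). The relatives of Ccng1 and Btg2 (Ccng2, Btg1, Btg3, Tob1 and Tob2) gave a rise of Btg1 by 0.69 ± 0.17 (adjusted p = 0.0016) and a fall of Tob1 by 0.47 ± 0.15 (adjusted p = 0.011) at 9 months, with 37.9% of all genes called. Without 9mCON replicate 2, 3 of these 5 rose (Btg1, Btg3 and Ccng2) and 1 fell. At 3 months Tob1 fell and 0 rose, with 19.8% of all genes called. With rapamycin in TSCmKO, Btg1 and Btg3 fell and Tob1 rose at 9 months, and Tob2 fell at 3 months (32.6% and 23.6% called).

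Counted over the 8 genes, 4 were called between genotypes at 9 months (3 up, 1 down) and 4 at 3 months (all up), 3 with rapamycin in TSCmKO at each age, and 2 and 0 with rapamycin in CON at 9 and 3 months. All genes were called at 37.9%, 19.8%, 32.6%, 23.6%, 11.8% and 0.679% in these comparisons. With 8 genes, the 3 called with rapamycin in 9mTSCmKO are a share near that of all genes. The 2 called in 9mCON became 0 without 9mCON replicate 2. Without that library Btg2 was also called higher between genotypes at 9 months (0.64, adjusted p = 0.011). In 3mCON, where 0 of 8 were called, Gadd45b and Cdkn1a had unadjusted p-values of 0.0205 and 0.0210 by edgeR (adjusted p = 0.399 and 0.401). Of all 13543 genes, 1216 had an unadjusted p under 0.05 there.

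The genes whose pattern over the 8 group means of log2 CPM was most like each member were sought among the 9638 tested genes that averaged 5 CPM or more, and are given as a description over 8 points. For Gadd45a Crnkl1 is given (r = 0.991), for Cdkn1a they were Hspa2 (0.985) and Timm8a1 (0.974), and for Gadd45g Mpnd (0.960) and Nfkbia (0.956). For Mdm2 they were Zfp770 (0.982) and Osgin2 (0.976), for Ccng1 Pds5b (0.987) and Gid4 (0.985), and for Btg2 Nab2 (0.976) and Ctnna3 (0.951). For Trp53 they were Riox2 (0.950) and Fbxo25 (0.918), and for Gadd45b Wdr61 (0.855) and Lmod3 (0.850).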

How the data were processed

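EDL muscle mRNA of 40 mice in 8 groups was sequenced. Per the labels and the study's methods, the authors isolated poly(A) RNA, made directional single-end libraries, trimmed reads with Cutadapt 1.9.1 and assigned them with kallisto 0.43.1 to Ensembl transcripts of GRCm38. Reads with more than 1 matching transcript were split evenly between those transcripts. The deposited tables hold the estimated counts per gene and the TPM values the authors derived from them, and 0 value columns had no label.

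Counts were rounded and tested with edgeR 4.0.16 in R 4.3.3: TMM scaling, genes at 1 CPM or more in 5 libraries, 1 robust quasi-likelihood fit of 8 group means to 40 libraries, two-sided F-tests for 15 contrasts (12 between pairs of groups, 3 interactions), and Benjamini-Hochberg adjustment over 13543 genes at 0.05. The tested genes held at least 99.8% of each library's counts. Standard errors are the log2 change divided by the root of its F statistic. The fit was tested on simulated data for the comparison of genotypes at 9 months, with 100 changed genes. It recovered 87% of changes of 1 and 97% of changes of 2 on the log2 scale. Of the genes called, 6.12% were false in each case. Controls were littermates, but the labels do not tie single mice to litters, so that no litter term was fitted and p-values measure the spread between libraries.

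The 8 genes and the gene lists were chosen with earlier results of these data known. Named beside the 8 were Tsc1, up to 4 of the most changed called genes per list and contrast, and a few genes (among them Mdm4, Ppm1d, Cdkn2a, Sesn1, Zmat3, Bax, Map3k4, Btg1 and Ccng2) whatever their value. Others are named after their values were seen. Of 22 immediate-early genes, 17 are analysed here. Map2k7 stood on 2 rows and was not counted. For Gadd45a, 1 gene of the likeness search is not reported here. List and marker counts without 9mCON replicate 2 were added after seeing the data. Replicates of a group correlated at r = 0.934 to 0.992. Counting error alone limits the lowest values. Alternatives were other scalings (DESeq2 size factors, upper quartile), no filter on low counts, a replicate block, insert size as a term, only the groups compared, DESeq2 1.42.0, limma 3.58.1 on log2(TPM + 1) and each library left out.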

Additional observations from a re-analysis of the deposited data

Results flagged for a closer look

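Of 64 gene and group combinations, 9 had a library whose gap to its nearest neighbour was larger than Dixon's 95% limit for 5 values (0.71 of the range), where chance flags about 1 in 20. In 9mCON replicate 2 was high for Gadd45b (54.6 CPM, next 25.6), Cdkn1a (59.5, next 38.8) and Btg2 (170.5, next 36.2). In 9mTSCmKO replicate 3 was high for Gadd45a (332 CPM, next 244). In 9mTSCmKO+RM replicate 1 was high for Gadd45b (42.5 CPM, next 27.4) and Gadd45g (21.9, next 13.9). In 9mCON+RM replicate 5 was low for Gadd45g (13.7 CPM, next 19.2). In 3mCON+RM replicate 2 was high for Cdkn1a (79.9 CPM, next 43.8) and Ccng1 (2233, next 1887).

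The response to rapamycin differed between the genotypes by an interaction test in 4 cases. At 9 months these were Gadd45a (log2 difference -1.71, adjusted p = 0.0054 by edgeR) and Btg2 (1.82, adjusted p = 0.032), and at 3 months Gadd45a (-2.26, adjusted p = 0.00028) and Gadd45g (-2.86, adjusted p = 0.0046). The Btg2 difference rests on 9mCON replicate 2: without it the estimate was 0.73 (adjusted p = 0.0987), and the call was lost in 7 of 20 fits that left out 1 library.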

How the results depend on the processing

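Over the 8 genes and 15 comparisons, 2309 of the recomputed values kept their side of the threshold, 64 lost the call, 25 gained it and 2 changed sign and gained it. A further 96 changed sign with no call under either setting, and are counted among the 2309. The 2 were Btg2 between genotypes at 9 months (-0.67 to 0.64 with 1 library left out) and in treated TSCmKO against vehicle-treated CON at 9 months (-0.34 to 0.97), both positive without 9mCON replicate 2. In 1 of 8 alternative settings the calls of Gadd45g and Cdkn1a between genotypes at 3 months, of Gadd45g and Btg2 with rapamycin in 9mCON, and of Gadd45b and Gadd45g between genotypes under rapamycin at 3 months were lost (adjusted p of 0.0505 to 0.215), as was that of Btg2 for the interaction of rapamycin and genotype at 9 months in 5 of 8. The counts of members called moved by more than 1.5 times as follows, the libraries that decide single calls being named with each result. With 1 library left out they ran from 2 to 4 for genotype at 3 months (2 without 3mCON replicate 1, 3mCON replicate 3 or 3mTSCmKO replicate 5), 0 to 2 for rapamycin in 9mCON (0 without 9mCON replicate 2), and 0 to 2 for genotype under rapamycin at 3 months (0 without 3mCON+RM replicate 2 or 3mTSCmKO+RM replicate 5). They ran from 2 to 5 for treated TSCmKO against vehicle-treated CON at 9 months (5 without 9mCON replicate 2), 0 to 1 for the same at 3 months and for age in CON, and 1 to 2 for the interaction of rapamycin and genotype at 9 months. Without the filter on low counts, 1 member was called for rapamycin in 9mCON, for genotype under rapamycin at 3 months and for that interaction. With only the groups compared, 1 was called for rapamycin in 9mCON, for the interaction and for treated TSCmKO against vehicle-treated CON at 3 months. Upper-quartile scaling, DESeq2 and limma each called 4 for genotype under rapamycin at 9 months, and DESeq2 called 1 for age in CON and 1 for treated TSCmKO against vehicle-treated CON at 3 months. Limma called 1 for the interaction. With insert size as a term (39 libraries), 1 was called for age in TSCmKO, Gadd45a, and 1 for the interaction. The causes were not tested, beyond the fewer libraries.

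Replicate numbers do not pair the mice: deviations of same-numbered libraries correlated at -0.363 to 0.412 (median -0.0040), and 4 of 40 libraries matched their own number best. With the replicate block, the interaction of rapamycin and genotype at 9 months called 1 member, and the number called in the other comparisons moved by no more than 1.5 times. Over all genes, a fit to only the groups compared called 2710 for genotype at 9 months (5133 in the common fit), 2512 for rapamycin in 9mTSCmKO (4410), 580 for rapamycin in 9mCON (1604), 378 for rapamycin in 3mCON (92), 2563 for genotype under rapamycin at 3 months (1359), 3740 for treated TSCmKO against vehicle-treated CON at 3 months (2260), 34 for age in CON (138), and 310, 201 and 1178 for the 3 interactions (669, 660 and 467). Insert size as a term left 1702 of 5064 for age in TSCmKO and 25 of 138 in CON. DESeq2 called 181 for rapamycin in 3mCON and 375 for age in CON, where limma called 215. Without the filter these were 38 and 83, with 435 for the 9-month interaction. With 1 library left out rapamycin in 3mCON called 38 to 65 and age in CON 30 to 942.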

Other observations

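Within groups, after each library's deviation from its group mean of log2 CPM was taken, Btg2 went with the summed immediate-early transcripts (r = 0.785 over 40 libraries, and 0.595 without 9mCON replicate 2). With the same sum, r was 0.399 for Gadd45g (0.353 without that library), 0.303 for Cdkn1a (0.154) and -0.081 for Gadd45a (-0.404). Among the Gadd45 genes, r was 0.36 for Gadd45a and Gadd45b (0.256 without that library), 0.015 for Gadd45a and Gadd45g (-0.059) and 0.077 for Gadd45b and Gadd45g (-0.012). Cdkn1a went with Gadd45g at r = 0.461 (0.428 without that library) and with Gadd45a at r = 0.329 (0.255). For Mdm2 and Ccng1 r was 0.37 (0.384), and for Gadd45b and Ccng1 -0.386 (-0.428). These correlations are descriptions over libraries that share their depth and dissection within each sample.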
